A study of Mus musculus with 15 samples.

Results

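The 45 genes described here mark macrophages, dendritic cells and the wider leukocyte population, and were followed in mammary tissue of nude mice that received the flame retardant BDE-47 or its vehicle. They were picked by gene name as a module of myeloid genes out of 52521 genes in the tables, with no threshold on their levels, although earlier results of these data were known when the list was made. A set of 7 of them (Mrc1, Cd163, Retnla, Arg1, Chil3, Mgl2 and Clec10a) is often used to describe M2-like macrophages, and this set was placed against 17 general macrophage genes: Cd68, Adgre1, Csf1r, Aif1, Mpeg1, Ctss, Lyz2, Itgam, Fcgr1, Fcgr3, Fcer1g, Tyrobp, C1qa, C1qb, C1qc, Cd14 and Msr1.

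BDE-47 (2,2',4,4'-tetrabromodiphenyl ether) is a polybrominated diphenyl ether, a class of flame retardants that persists in the body. Female nu/nu mice, which are athymic and lack mature T cells, carried osmotic pumps for 16 weeks, fitted after 8 weeks of age. The pumps delivered 0.03 mg/kg per day of BDE-47 to 7 mice, and vehicle alone (PEG300 with 1% DMSO) to 8 mice. RNA was taken from normal mammary tissue of the left 4th gland, 1 library per mouse, and read as 3′ tags, and the values are on a log2 scale of CPM (counts of a gene per M mapped reads), where 0 stands for any level under 1 CPM. The labels do not say which mice carried a xenograft near the sampled gland, so this was not used as a covariate. The comparison addresses whether long exposure at this dose altered the myeloid genes of the gland.

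Macrophages settle in the mammary gland along ducts and around fat cells, where they clear debris, take part in remodelling of the ducts and present antigen. Their survival depends on signalling through the receptor Csf1r, and their products include lysosomal proteases, Fc receptors, complement C1q and chemokines. Exposure of macrophages to IL-4 or IL-13 raises a group of genes, among them Arg1, Retnla, Chil3, Mrc1, Mgl2 and Clec10a, which gave the name M2 or alternatively activated. Conventional dendritic cells are a related antigen-presenting lineage that depends on the receptor Flt3 and expresses the transcription factor Zbtb46.

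The depth was 10.1 to 19.6 M mapped reads per mouse, so that 1 CPM stands for about 10 to 20 reads. Between 6929 and 12684 genes were above 1 CPM in each mouse. Many values at 0 belonged to genes with sizeable means: the 2745 genes with a mean of 10 to 20 CPM were at 0 in 28.5% of their values. Some genes that every cell uses were at 0 too, Pgk1 and Tbp in 12 of the 15 mice each, and Polr2a and Ppia in 1 each. Others, such as Actb, Gapdh and B2m, were above 1 CPM in all 15 mice. A 0 therefore reads as a level under 1 CPM in that library, and not as a gene without RNA in the tissue.

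Some libraries stood apart in markers of other cell types. Vehicle replicates 6 and 8 had all 8 B cell markers of a textbook list above 1 CPM, with a summed level of 700 and 895 CPM, against 0 to 17.4 CPM in the other 13 mice. Cd79a, which encodes part of the B cell receptor, was above 1 CPM only in these 2 of the 15 mice. All 8 T cell markers were also highest in these 2 mice, and 5 of 6 adipocyte markers and 4 of 6 mammary epithelium markers were lowest there. In BDE-47 replicate 6 the summed level of 6 skeletal muscle markers was 75480 CPM, against 35.5 to 150 CPM in the others, and Ckm, the muscle creatine kinase, was highest there at 13.35 on the log2 scale. The members' differences are given with all mice and without vehicle replicates 6 and 8, and the part of lymphoid or muscle tissue in them was not tested.

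Macrophage genes were present in the mammary gland of every mouse. Of the 45 members, 43 were above 1 CPM in at least 1 mouse and 10 in all 15 mice, and 23 to 41 were above it in a given mouse. The 10 members found in all mice were Laptm5, Ctss, Lyz2, the C1q chain genes C1qa, C1qb and C1qc, Retnla, Clec10a, Ccl6 and Ccl8. Chil3 and Flt3 were listed at 0 in all mice, Xcr1 was above 1 CPM in 1 mouse, and 30.4% of all member values were at 0. Since 3′ tag libraries give about 1 tag per transcript whatever its length, levels of different genes can be ordered on the CPM scale. By mean log2(CPM) over the 15 mice the highest members were C1qa at 6.69, Retnla at 6.47, Lyz2 at 6.39, Ccl8 at 5.87 and C1qb at 5.84, steps that were smaller than the spread of each gene between mice. The summed level of the members ran from 472 to 6094 CPM with a median of 2142 CPM in vehicle mice, and from 520 to 2136 CPM with a median of 1378 CPM in BDE-47 mice. The highest sums, 4609 and 6094 CPM, were those of vehicle replicates 6 and 8, but the groups overlapped also through the remaining mice.

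**Figure D1:**
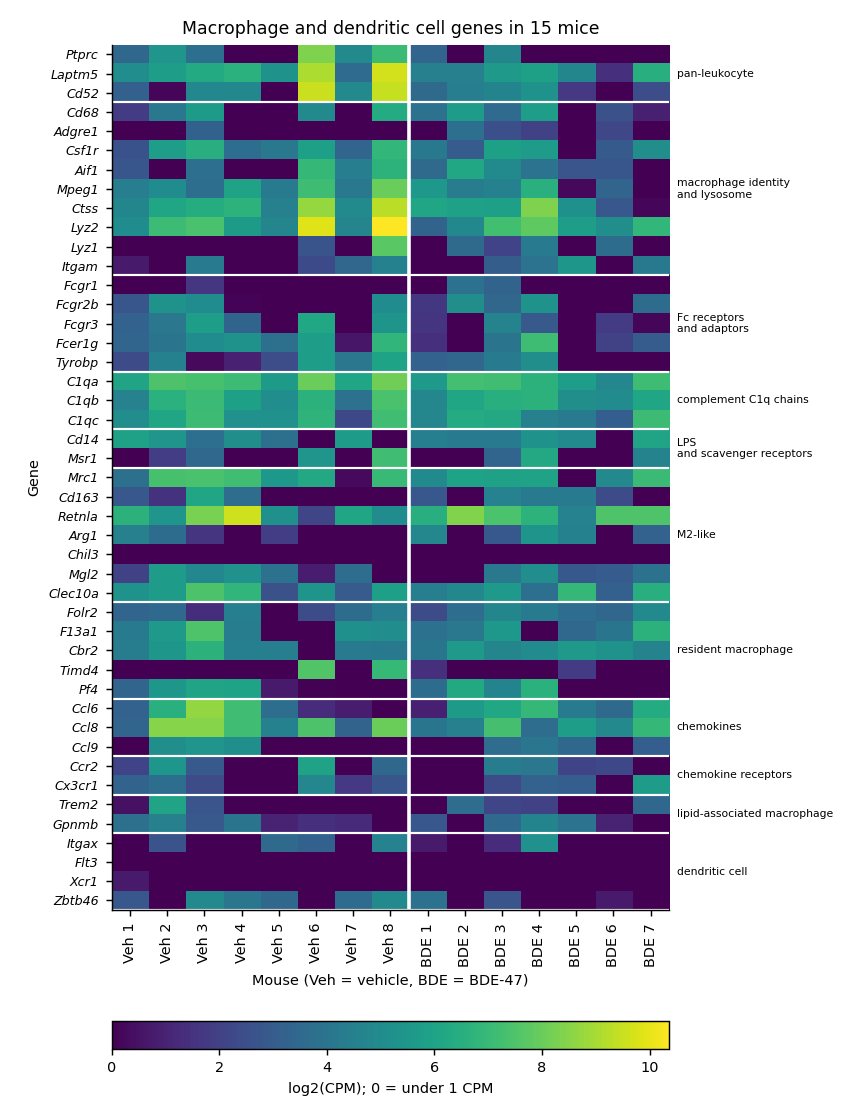
Level of the 45 macrophage and dendritic cell genes (rows, grouped by role) in the 8 vehicle and 7 BDE-47 mice (columns), coloured by log2(CPM) where 0 stands for a level under 1 CPM. Laptm5, Ctss, Lyz2 and the C1q chain genes are present in every column, Chil3 and Flt3 are dark throughout, and vehicle replicates 6 and 8 hold the brightest values of Cd52, Laptm5, Ctss and Lyz2.

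No member passed the test between the groups after adjustment for all genes tested. limma, fitted on the 9508 genes above 1 CPM in at least 7 mice, called 0% of these genes at an adjusted p under 0.05, and the lowest adjusted p, over all genes and over the 38 members tested, was 0.982. At an unadjusted p under 0.05 it held 443 genes. Of these, 259 were lower with BDE-47 (2.72% of genes tested), and 184 were higher (1.94%). Among the members, 3 were lower at this unadjusted level (Ptprc, Laptm5 and Mpeg1) and 0 were higher. The mean difference was under 0 for 24 of the 38 members tested and over 0 for 14, beside 50.9% of all genes tested under 0. The median difference was -0.26 on the log2 scale over these members, beside -0.02 over all genes tested. Leaving out 1 mouse gave medians from -0.53, without vehicle replicate 5, to -0.03, without BDE-47 replicate 6. The log2 ratio of mean CPM gave -0.66, beside -0.11 over all genes tested. Without vehicle replicates 6 and 8 the median was -0.18 over the 36 members then tested, beside -0.08 over all genes tested. Over the 43 members above 1 CPM in at least 1 mouse it went from -0.21 to 0.01. Every member had overlapping values in the 2 groups. A gene at 0 in mice of both groups overlaps in any case, as Chil3 and Flt3 did, which were at 0 in all mice. The share of all genes with such an overlap was not counted, so the overlap is not read as a trait of the members. The standard error of the difference had a median of 1.04 on the log2 scale over the members tested, so that differences of about 2-fold were within 1 standard error for a typical member. In whole tissue, fewer cells of a type and less RNA per cell cannot be told apart.

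By size alone, 13 members had a mean level more than 2-fold lower with BDE-47 and 2 more than 2-fold higher. The share of all 52521 listed genes past 2-fold was 3.27% lower and 3.1% higher. Among the genes tested, the shares were 13.2% lower and 13% higher, beside 12 and 1 of the 38 members tested. Of the 13 members, 8 had their highest 2 values in vehicle replicates 6 and 8. Without these 2 mice, 5 of the 13 remained past 2-fold (Ptprc, Mpeg1, Fcgr3, Fcer1g and Zbtb46) and 3 changed sign (Cd52, Lyz2 and Timd4). High values in 2 vehicle mice favour a negative difference by themselves. The same counts among all genes past 2-fold lower were not made, so these are not read as particular to the members. The count over all members became 6 lower and 6 higher, beside 1664 and 1638 of all listed genes. Among the genes then tested it was 6 and 4 of 36 members, beside 1265 and 1113 of 8835 genes. No member then had an unadjusted limma p under 0.05.

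**Figure D2:**
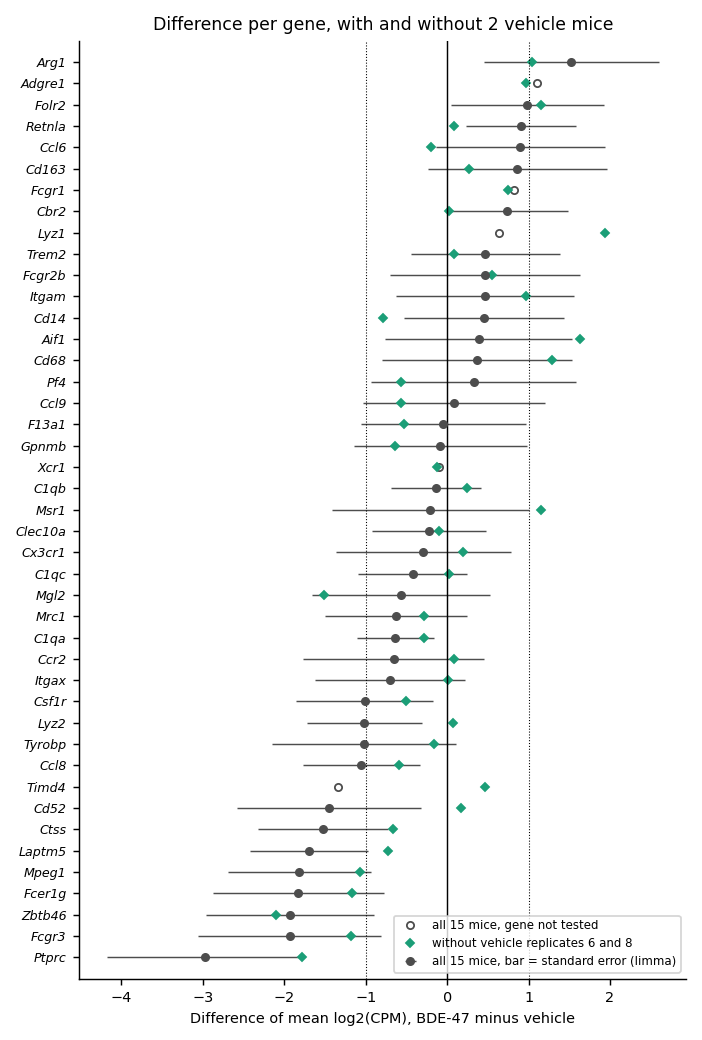
Difference of the mean log2(CPM), BDE-47 minus vehicle, for the 43 members above 1 CPM in at least 1 mouse, with all 15 mice (circles, bars of 1 limma standard error where tested) and without vehicle replicates 6 and 8 (diamonds); dotted lines mark 2-fold. Ptprc lies farthest to the left at -2.97 and moves to -1.78, while Cd52, Lyz2 and Timd4 cross 0.

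The pan-leukocyte genes held the member farthest from 0. Ptprc encodes CD45, the tyrosine phosphatase on the surface of all nucleated blood cells. Its level in vehicle mice ran from 0 through a median of 4.37 to 8.36 on the log2 scale, while BDE-47 mice ran from 0 through a median of 0 to 4.70. It was above 1 CPM in 6 of 8 vehicle and 3 of 7 BDE-47 mice, and its highest values were 8.36 and 7.07 in vehicle replicates 6 and 8. The mean difference was -2.97 on the log2 scale (limma standard error 1.21, unadjusted limma p = 0.018, adjusted p = 0.982, two-sided exact permutation p = 0.044). This exact p was the lowest among the members, where the smallest p that the 6435 ways to divide the mice allow is 0.0001554. Without vehicle replicates 6 and 8 the difference was -1.78.

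Laptm5, a lysosomal membrane protein of blood cells, was above 1 CPM in all mice. It averaged 6.43 ± 2.03 (SD, n = 8) in vehicle and 4.73 ± 1.65 (SD, n = 7) in BDE-47 mice on the log2 scale. The highest vehicle values were 9.65 and 9.07 in replicates 8 and 6, and the lowest of all was 1.41 in BDE-47 replicate 6, the library with muscle genes. The difference of -1.70 (limma standard error 0.72, unadjusted limma p = 0.024, adjusted p = 0.982) had an exact permutation p of 0.112 and was -0.72 without vehicle replicates 6 and 8. Cd52, a small GPI-anchored glycoprotein of lymphocytes and myeloid cells, ran from 0 through 4.83 to 9.53 in vehicle and from 0 through 3.60 to 5.27 in BDE-47 mice. Its 2 highest values, 9.53 and 9.44, were again those of vehicle replicates 6 and 8. The difference of -1.45 (limma standard error 1.13) became 0.17 without them.

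The macrophage identity and lysosomal genes had differences in both directions. Mpeg1, which encodes the pore-forming protein perforin-2, was above 1 CPM in 8 of 8 vehicle mice, from 3.75 through 4.73 to 7.99, and in 6 of 7 BDE-47 mice, from 0 through 4.35 to 6.58. The medians lay close together, and the difference of the means, -1.81 (limma standard error 0.87, unadjusted limma p = 0.044, adjusted p = 0.982, exact permutation p = 0.118), drew on 2 high vehicle values and on 2 BDE-47 values of 0.24 and 0. Without vehicle replicates 6 and 8 it was -1.07. Ctss, the lysosomal cysteine protease cathepsin S, averaged 6.43 ± 1.78 (SD, n = 8) in vehicle and 4.91 ± 2.65 (SD, n = 7) in BDE-47 mice. Its difference of -1.52 (limma standard error 0.80) became -0.67 without the 2 vehicle mice. Lyz2, the lysozyme of macrophages and neutrophils, averaged 6.86 ± 2.25 (SD, n = 8) and 5.84 ± 1.57 (SD, n = 7). Its vehicle replicates 6 and 8, at 9.87 and 10.36, were the highest values of any member, and without them the difference went from -1.02 (limma standard error 0.70) to 0.07.

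Csf1r, the receptor for the growth factors CSF1 and IL-34, was above 1 CPM in all vehicle mice, from 2.63 through 4.95 to 6.88, and in 6 of 7 BDE-47 mice, from 0 through 4.19 to 5.90. The groups overlapped over most of this range. Its difference was -1.01 (limma standard error 0.84), and -0.51 without vehicle replicates 6 and 8. Adgre1 encodes F4/80, the classical surface marker of mouse macrophages, and it was close to the detection floor: 1 of 8 vehicle mice, at 3.23, and 4 of 7 BDE-47 mice, at 2.01 to 3.79, were above 1 CPM. It was too sparse for the limma fit, and its mean difference of 1.10 had an exact permutation p of 0.166 and was 0.97 without vehicle replicates 6 and 8. The lysosomal glycoprotein gene Cd68 had a difference of 0.36, and Aif1, the calcium-binding protein IBA1, one of 0.38, with standard errors of 1.17 and 1.14 in limma. Without vehicle replicates 6 and 8 these were 1.29 and 1.63. Itgam, the integrin CD11b of monocytes, macrophages and neutrophils, differed by 0.46, and Lyz1, the paralog next to Lyz2, by 0.64, with 2 of 8 vehicle and 4 of 7 BDE-47 mice above 1 CPM. Itgam differed by 0.97 and Lyz1 by 1.93 without vehicle replicates 6 and 8. Lyz1 and Lyz2 are near-identical neighbours, 5522 bases apart on chromosome 10 (GRCm38.p6), so tags could be split between them, and each value is uncertain to that extent.

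Among the Fc receptors and their adaptors, Fcgr3 and Fcer1g had the largest negative differences. Fcgr3, an activating receptor for IgG, was above 1 CPM in 6 of 8 vehicle mice, with a median of 3.73 and a highest value of 6.17, and in 5 of 7 BDE-47 mice, with a median of 1.58 and a highest value of 4.62. Its difference was -1.93 (limma standard error 1.13, exact permutation p = 0.104). Fcer1g, the signalling gamma chain that Fcgr3 pairs with, was above 1 CPM in 8 of 8 vehicle mice, from 0.62 through 4.51 to 6.82, and in 5 of 7 BDE-47 mice, from 0 through 2.01 to 7.13. The highest value of Fcer1g in any mouse was thus in the BDE-47 group, in replicate 4. Its difference of -1.83 (limma standard error 1.05, exact permutation p = 0.129) became -1.17 without vehicle replicates 6 and 8, and that of Fcgr3 became -1.18. Tyrobp, the adaptor DAP12, was above 1 CPM in all 8 vehicle mice but in 4 of 7 BDE-47 mice, the most unequal split of any member (Fisher's exact test, two-sided, p = 0.0769). The BDE-47 values of Tyrobp were either 0 or between 3.25 and 5.11, the medians of the groups were 3.27 and 3.25, and the difference of -1.02 (limma standard error 1.13) became -0.16 without vehicle replicates 6 and 8. Fcgr2b, the inhibitory receptor, differed by 0.47 (limma standard error 1.17), or 0.55 without those mice. Fcgr1, the high-affinity receptor, was above 1 CPM in 1 vehicle and 2 BDE-47 mice, and differed by 0.82, or 0.75 without them.

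Among the C1q chain genes, C1qa and C1qb varied little between mice, with SDs of 0.97 and 1.01 over the 15 mice, and C1qc varied more, with an SD of 1.48. C1qa, C1qb and C1qc encode the A, B and C chains that assemble into C1q, the recognition part of the classical complement pathway, and tissue macrophages are its main source. On the log2 scale C1qa averaged 6.99 ± 0.93 (SD, n = 8) in vehicle and 6.35 ± 0.97 (SD, n = 7) in BDE-47 mice, a difference of -0.64 (limma standard error 0.47, exact permutation p = 0.212). C1qb averaged 5.90 ± 1.25 (SD, n = 8) and 5.77 ± 0.76 (SD, n = 7), a difference of -0.13 (limma standard error 0.55, exact permutation p = 0.803). C1qc averaged 5.62 ± 1.61 (SD, n = 8) and 5.19 ± 1.42 (SD, n = 7), a difference of -0.42 (limma standard error 0.67, exact permutation p = 0.596). None of these exceeded the spread between mice, and without vehicle replicates 6 and 8 they were -0.28, 0.24 and 0.02.

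The levels of the 3 chain genes followed each other from mouse to mouse. Of 10 pairs of members compared across the 15 mice, the C1q pairs were the 3 with an adjusted permutation p under 0.05. They were also the pairs with both genes above 1 CPM in all 15 mice. In each other pair at least 1 gene was at 0 in some mice, which limits a comparison between the pairs. Pearson's r was 0.82 for C1qa with C1qb, 0.79 for C1qa with C1qc and 0.81 for C1qb with C1qc (unadjusted permutation p = 0.0003, 0.00037 and 0.00034, each 0.00123 after Benjamini-Hochberg adjustment over the 10 pairs). Spearman's rho was 0.84, 0.82 and 0.76 (unadjusted permutation p = 0.00022, 0.00038 and 0.00149, adjusted 0.0019, 0.0019 and 0.00497). Leaving out the 2 mice farthest from the median of the first gene gave r of 0.84, 0.74 and 0.75, and leaving out vehicle replicates 6 and 8 gave 0.76, 0.74 and 0.76. Within the vehicle group r was 0.89, 0.72 and 0.92, and within the BDE-47 group 0.86, 0.90 and 0.60.

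The remaining 7 pairs had adjusted permutation p of 0.0588 or more. Ptprc and Laptm5 had r = 0.54 (unadjusted permutation p = 0.0371, adjusted 0.0742), which became 0.05 without vehicle replicates 6 and 8, also the 2 mice farthest from the median of Ptprc. Lyz1 and Lyz2 had r = 0.58 (unadjusted permutation p = 0.0235, adjusted 0.0588), and 0.20 without their 2 farthest mice. Cd68 and Adgre1 had r = 0.52 (unadjusted permutation p = 0.0479, adjusted 0.0798), 0.47 without the 2 mice farthest from the median of Cd68, and 0.74 without vehicle replicates 6 and 8. Mrc1 and Cd163, both scavenger receptors of tissue macrophages, had r = -0.01 (permutation p = 0.98), and the neighbouring lectin genes Mgl2 and Clec10a had r = 0.11 (permutation p = 0.683).

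**Figure D3:**
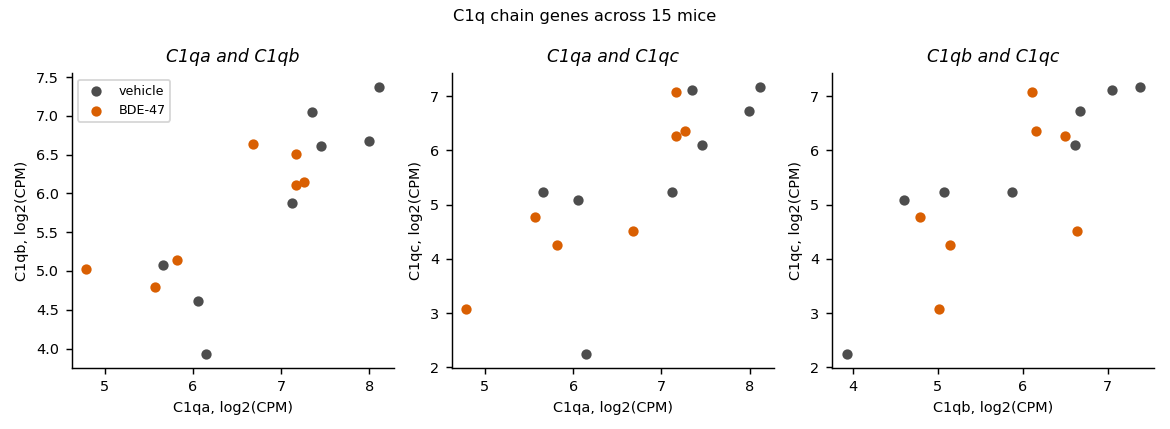
Levels of the C1q chain genes against each other in 15 mice, log2(CPM) on both axes, with vehicle mice in grey and BDE-47 mice in orange. Points of both groups lie along 1 rising band in each panel, with r between 0.79 and 0.82.

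C1qb, C1qc and C1qa lie in a row on chromosome 4 of GRCm38.p6, at chr4:136880126-136886200, chr4:136889801-136892936 and chr4:136895916-136898844, with 3600 and 2979 bases between neighbours. No promoter window was found for C1qa. The promoter windows of C1qb and C1qc are printed because the levels of the C1q chain genes followed each other across mice. They come from RefSeq (GRCm38.p6), on the minus strand, and run from 250 bases before the transcript start through the first 50 bases of the transcript, at chr4:136886151-136886450 for C1qb and chr4:136892865-136893164 for C1qc. Capitals mark GAGGAA, a core motif bound by the myeloid transcription factor PU.1, searched on both strands, so that a match on the opposite strand appears as TTCCTC.
C1qb: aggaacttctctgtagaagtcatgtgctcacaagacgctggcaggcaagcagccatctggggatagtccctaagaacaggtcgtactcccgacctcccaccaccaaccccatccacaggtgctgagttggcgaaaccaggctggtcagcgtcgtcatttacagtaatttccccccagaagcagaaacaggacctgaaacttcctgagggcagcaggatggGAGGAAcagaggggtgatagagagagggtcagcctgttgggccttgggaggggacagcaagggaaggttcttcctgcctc
C1qc: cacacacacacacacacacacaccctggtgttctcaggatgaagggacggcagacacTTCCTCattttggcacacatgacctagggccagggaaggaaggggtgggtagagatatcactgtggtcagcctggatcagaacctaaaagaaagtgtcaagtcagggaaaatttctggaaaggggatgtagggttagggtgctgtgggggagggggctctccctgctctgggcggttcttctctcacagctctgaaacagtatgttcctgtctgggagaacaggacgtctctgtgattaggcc

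The match in C1qb begins at position -30 from the transcript start and that in C1qc at -193, on opposite strands. A window was found for 36 of the 45 members, and 18 of these 36 (50%) held the motif, beside 2275 of the 7358 tested genes with a window (30.9%). The 36 include members that were not tested, such as Chil3, Flt3 and Xcr1. By window and without regard to testing, 20 of 40 member windows (50%) held it, beside 9289 of all 32851 windows (28.3%). Among the members with the motif were Ptprc, Laptm5, Cd68, Aif1, Ctss, Fcgr3, Mrc1, Retnla, Mgl2 and Trem2, and among those without it Lyz2, Mpeg1, Fcer1g, Cd163 and Zbtb46. Members on both sides had negative and positive differences, and a match describes the letters of the window only.

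The receptors for bacterial products and modified lipids were uneven. Cd14, a co-receptor for lipopolysaccharide, was above 1 CPM in 6 of 8 vehicle and 6 of 7 BDE-47 mice, with medians of 4.49 in both groups. Vehicle replicates 6 and 8 were the 2 vehicle mice at 0, and the difference of 0.45 (limma standard error 0.98) became -0.79 without them. Msr1, the class A scavenger receptor, ran the other way, with its highest vehicle values of 5.42 and 7.20 in replicates 6 and 8, and its difference of -0.21 (limma standard error 1.21) became 1.15.

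The M2-like genes, as a set, lay on both sides of 0. Of the 7, Arg1, Retnla and Cd163 had positive differences, Mrc1, Mgl2 and Clec10a negative ones, and Chil3, a secreted chitinase-like protein of activated macrophages, was at 0 in all mice. None had an unadjusted limma p under 0.05.

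Arg1 encodes arginase 1, which turns arginine into ornithine and urea. It was above 1 CPM in 4 of 8 vehicle mice, from 0 through 0.78 to 4.50, and in 5 of 7 BDE-47 mice, from 0 through 3.25 to 5.35. The BDE-47 median was higher, but mice at 0 and mice above 4 occurred in both groups, and the difference of 1.52 (limma standard error 1.08) had an exact permutation p of 0.161. Vehicle replicates 6 and 8 were at 0, and without them it was 1.04. Retnla encodes RELM-alpha, a secreted protein also made by fat cells, and was above 1 CPM in all mice. It averaged 6.05 ± 2.25 (SD, n = 8) in vehicle and 6.96 ± 1.21 (SD, n = 7) in BDE-47 mice, a difference of 0.90 (limma standard error 0.67, exact permutation p = 0.371). Its lowest vehicle values, 2.15 and 5.03, were those of replicates 6 and 8, while the highest of all, 9.63, was also a vehicle mouse. Without replicates 6 and 8 the difference was 0.08. Cd163, the haemoglobin scavenger receptor, was above 1 CPM in 4 of 8 vehicle mice, with a highest value of 6.15, and 5 of 7 BDE-47 mice, with a highest value of 4.59. Its difference of 0.86 (limma standard error 1.10) became 0.27 without vehicle replicates 6 and 8, which were both at 0.

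Mrc1, the mannose receptor CD206, was above 1 CPM in 8 of 8 vehicle mice, from 0.26 through 6.62 to 7.39, and in 6 of 7 BDE-47 mice, from 0 through 5.95 to 7.07. Apart from 1 low mouse in each group, the values lay between 3.84 and 7.39. Its difference was -0.63 (limma standard error 0.87, exact permutation p = 0.59), and -0.29 without vehicle replicates 6 and 8. Mgl2, the lectin CD301b of macrophages and some dendritic cells, was above 1 CPM in 7 of 8 vehicle mice, with a median of 3.79 and a highest value of 5.70, and in 5 of 7 BDE-47 mice, with a median of 3.03 and a highest value of 5.09. This member moved away from 0 when the 2 vehicle mice were left out, since they were its lowest vehicle values at 0.85 and 0: its difference was -0.56 (limma standard error 1.09) with all mice and -1.52 without them. Clec10a, the related lectin CD301a, averaged 5.26 ± 1.71 (SD, n = 8) and 5.04 ± 1.38 (SD, n = 7), a difference of -0.22 (limma standard error 0.70), or -0.11 without the 2 vehicle mice.

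**Figure D4:**
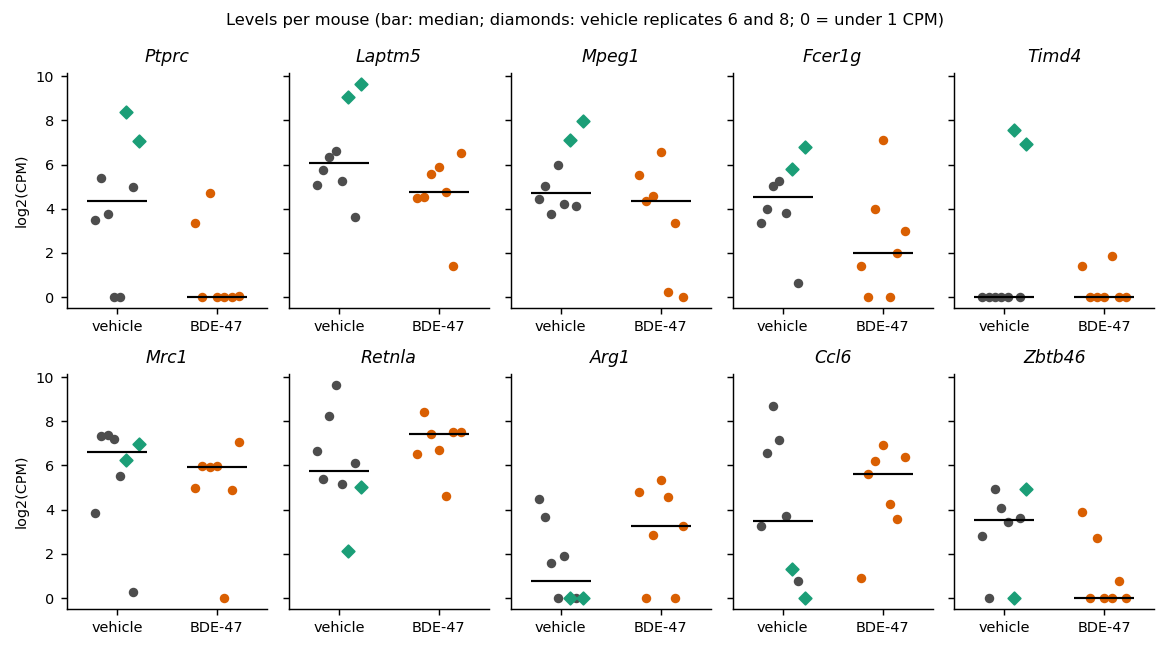
Level of 10 members per mouse, log2(CPM), in vehicle (grey) and BDE-47 mice (orange), with bars at the medians, green diamonds for vehicle replicates 6 and 8, and 0 for a level under 1 CPM. The diamonds are the 2 highest points for Ptprc, Laptm5, Mpeg1 and Timd4, and lie among the 3 lowest vehicle points for Retnla and Ccl6 and at 0 for Arg1.

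Set against each other, the M2-like genes had a median difference of 0.32 over the 6 detected, and the general macrophage genes one of -0.42 over 17, so that the M2-like median was higher by 0.74 on the log2 scale. Without vehicle replicates 6 and 8 the medians were -0.01 and 0.02, and the gap was -0.03. The same can be seen per mouse as the mean log2(CPM) of the 7 genes minus that of the 17. This value was -3.22 and -3.34 in vehicle replicates 6 and 8, and between -1.09 and 1.42 in the other 13 mice, with medians of 0.17 in all vehicle and 0.28 in BDE-47 mice. In those 13 mice the 2 groups overlapped over nearly the whole range. Leaving out any 1 mouse gave a gap between 0.33, without vehicle replicate 6, and 1.09, without vehicle replicate 4, and it was 0.43 without vehicle replicate 8. The log2 ratio of mean CPM gave a gap of 0.38.

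**Figure D5:**
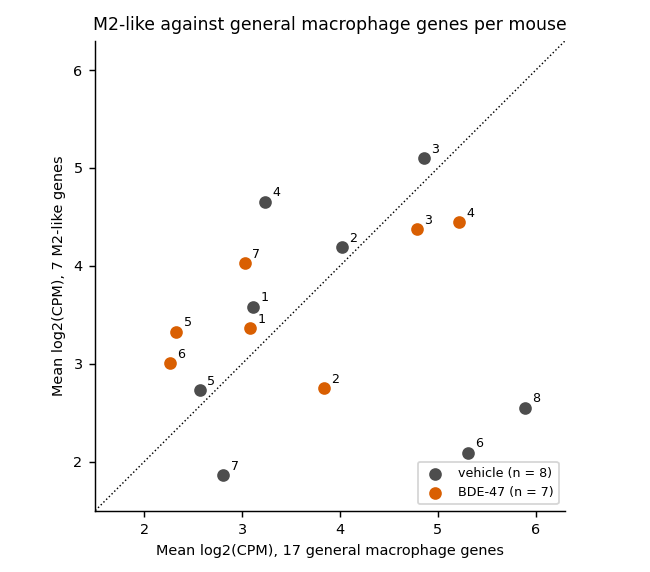
Mean log2(CPM) of the 7 M2-like genes against that of the 17 general macrophage genes, 1 point per mouse with its replicate number, vehicle in grey and BDE-47 in orange, and a dotted line where both are equal. Vehicle replicates 6 and 8 lie far below the line, by 3.22 and 3.34, and the other mice of both groups lie within 1.42 of it.

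The markers of resident tissue macrophages had differences within about 1 on the log2 scale, apart from Timd4. Folr2, a folate receptor of perivascular macrophages, had medians of 3.48 in vehicle and 3.72 in BDE-47 mice and a difference of 0.98 (limma standard error 0.94), and Cbr2, a carbonyl reductase, medians of 4.41 and 5.01 and a difference of 0.74 (limma standard error 0.75). F13a1, the A subunit of coagulation factor XIII, differed by -0.05, and Pf4, the chemokine CXCL4, by 0.33. Without vehicle replicates 6 and 8 the differences were 1.15 for Folr2, 0.02 for Cbr2, -0.53 for F13a1 and -0.57 for Pf4, a change of sign for Pf4. All 4 overlapped between the groups over most of their range. Timd4, a receptor for phosphatidylserine on dying cells that marks long-lived resident macrophages, was instead high in 2 mice. It stood at 7.55 and 6.93 in vehicle replicates 6 and 8, at 0 in the other 6 vehicle mice, and at 0 in 5 BDE-47 mice with the other two at 1.42 and 1.85. Its difference of -1.34 (exact permutation p = 0.467, too sparse for limma) became 0.47 without vehicle replicates 6 and 8.

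In the chemokines, Ccl8, a ligand for monocytes and other leukocytes made by tissue macrophages, averaged 6.36 ± 2.24 (SD, n = 8) in vehicle and 5.31 ± 1.41 (SD, n = 7) in BDE-47 mice. The medians were 7.32 and 4.86, but vehicle mice ran from 3.29 to 8.49 and covered the whole BDE-47 range. Its difference was -1.05 (limma standard error 0.72, exact permutation p = 0.296), and -0.59 without vehicle replicates 6 and 8. Ccl6 averaged 3.94 ± 3.22 (SD, n = 8) and 4.84 ± 2.10 (SD, n = 7), a difference of 0.90 (limma standard error 1.04) that became -0.19 without those mice, which were at 1.33 and just above the floor. Its neighbour Ccl9, which is 9249 bases away on chromosome 11 of GRCm38.p6, was above 1 CPM in 3 of 8 and 4 of 7 mice and differed by 0.09, or -0.57 without them. The chemokine receptors Ccr2, which draws monocytes from the blood, and Cx3cr1, the fractalkine receptor, differed by -0.66 and -0.29 (limma standard errors 1.11 and 1.07), and by 0.09 and 0.19 without them. The genes of lipid-associated macrophages, Trem2, a lipid-sensing receptor, and Gpnmb, a glycoprotein of lysosome-rich macrophages, differed by 0.47 and -0.08 (limma standard errors 0.91 and 1.06), and by 0.08 and -0.64 without them.

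Of the 4 dendritic cell genes, Zbtb46 alone was common enough to be followed in most vehicle mice. Zbtb46, a transcription factor of conventional dendritic cells and their precursors that is also found in endothelium, was above 1 CPM in 6 of 8 vehicle mice, from 0 through 3.55 to 4.95, and in 3 of 7 BDE-47 mice, from 0 through 0 to 3.90. The difference of -1.93 (limma standard error 1.03, unadjusted limma p = 0.069) had an exact permutation p of 0.0628. It was -2.10 without vehicle replicates 6 and 8, which stood at 0 and 4.95. Of 6 endothelial markers, 3 had a mean difference under -1, 2 of them at an unadjusted limma p under 0.05, and the other 3 had differences from 0.03 to 0.94. The part of endothelium in the Zbtb46 values was not tested. Itgax, the integrin CD11c of dendritic cells and some macrophages, was above 1 CPM in 4 of 8 vehicle mice, up to 4.58, and in 3 of 7 BDE-47 mice, up to 5.25, a difference of -0.70 (limma standard error 0.92) that became 0.01. Xcr1, the receptor of cross-presenting dendritic cells, was at 0.76 in vehicle replicate 1 and at 0 elsewhere. Flt3, the receptor of the lineage, was at 0 in every mouse, and at this floor a 0 does not show that a gene was not expressed.

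The members that peaked in the 2 lymphocyte-rich vehicle libraries can be counted. In 10 of the 45 members (Ptprc, Laptm5, Cd52, Aif1, Mpeg1, Ctss, Lyz2, Tyrobp, C1qa and Timd4) vehicle replicates 6 and 8 held the 2 highest of the 15 values, among them 9 of the 38 tested, beside 5.54% of all genes tested. In 0 members were both below all other mice, beside 3.25% of all genes tested. A tie at 0 was not counted here, and both were at 0 for Cd14, Cd163, Arg1, Ccl9 and Trem2, among others. The count of lowest values is thus limited by the floor and is not set against that of the highest. For 13 of the 45 members the sign of the difference turned when these 2 mice were left out. The share of all genes whose sign turned was not counted, so whether this number is particular to the members is not known.

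Other genes of myeloid biology gave no adjusted call either, where they were common enough for limma. It covered 2 of 4 growth factors and 3 of 5 chemokine ligands, and the genes left out could not be called. Among 4 growth factors of macrophages and dendritic cells, Csf1, the main ligand of Csf1r, differed by 1.96 (limma standard error 1.11, exact permutation p = 0.0918) and by 2.31 without vehicle replicates 6 and 8, with 5 of 8 vehicle and 6 of 7 BDE-47 mice above 1 CPM. Flt3l, the ligand of Flt3, differed by -0.18, or 0.14 without vehicle replicates 6 and 8, and Csf2 was at 0 in all mice. Of 5 further chemokine ligands, Ccl2, which attracts monocytes through Ccr2, was above 1 CPM in 5 of 8 vehicle mice but in 1 of 7 BDE-47 mice, and differed by -2.10, with an unadjusted exact permutation p of 0.0368 and -1.44 without the 2 vehicle mice. It was too sparse for limma. Cx3cl1, the ligand of Cx3cr1, differed by 1.60 (limma standard error 0.93), or by 0.57 without vehicle replicates 6 and 8, which were both at 0.

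Of 12 transcription factors of the lineage, 3 were past 2-fold lower and 1 higher, with 0 of the 11 tested at an unadjusted limma p under 0.05. Irf4, a factor of dendritic cells and B cells, differed by -1.41, which became -0.27 without vehicle replicates 6 and 8. In the IL-4 receptor arm, with 4 of 8 genes tested, the cytokine genes Il4 and Il13 were at 0 in all mice. Il13ra1, a chain of the IL-13 receptor, differed by 0.91, and Il10rb, a chain of the IL-10 receptor, by -0.58. Without vehicle replicates 6 and 8 these were 0.91 and -0.37. The M1-like list of 12 genes, named for macrophages activated by interferon-gamma and bacterial products, was at 0 in 75% of its values. Only 2 of the 12 genes were tested in limma. It had 5 genes past 2-fold lower, and vehicle replicates 6 and 8 held the 2 highest values of 5 of its genes. Its largest negative difference, -2.21 in the T cell and macrophage chemokine Ccl5, became -0.40 without them. Il1b, the cytokine IL-1 beta, differed by 0.39, or 0.56 without them. Of 10 further dendritic cell and Langerhans cell genes, 3 were tested. Epcam, which is also an epithelial adhesion molecule, differed by 0.55, or -0.12 without vehicle replicates 6 and 8. Fscn1, an actin-bundling protein of mature dendritic cells, differed by -1.78, or -0.33 without them.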

How the data were processed

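Mammary RNA of 8 vehicle and 7 BDE-47 mice was read by the authors as QuantSeq 3′ FWD libraries. Per the submitters' processing notes the reads were mapped with STAR 2.5.3a to GRCm38, and the paper gives normalization to CPM. The tables deposited by the authors hold log2 values of CPM, and levels under 1 CPM appear as 0. No source states the logarithm or this floor, which were inferred from the numbers themselves. The depth per mouse (10.1 to 19.6 M reads) was found from the spacing of low values, which came within 0.1 reads of a whole read in 100% of cases. Of 52636 entries, names that occur more than once were kept where only 1 entry was above the floor in any mouse or all were at 0 (101 names), and the other 5 were dropped, which left 52521 genes.

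Groups were taken from the labels and compared as independent mice. limma 3.58.1 (R 4.3.3; empirical Bayes with a trend, two-sided, Benjamini-Hochberg adjustment over all genes tested) was fitted on the log2 values as given, for genes above 1 CPM in at least 7 mice. Single genes were given exact permutation tests of the mean difference over all divisions of the mice (scipy 1.17.1) and Fisher's exact tests, and pairs of genes permutation tests with 100000 resamples. Standard errors in the text are those of limma. The scripts were tested on simulated data. Full statistics were given for the M2-like, C1q and dendritic cell genes, members past 2-fold or with an unadjusted p under 0.05, and the 5 highest members. From each further list the genes with an unadjusted p under 0.05 were named, otherwise those farthest above and below 0. Some genes that this rule names are not reported here. The members and lists were chosen with earlier results of these data known.

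Alternatives were pseudocounts of 1 and 0.1, no filter, a mean of at least 10 CPM, median-of-ratios size factors, no trend, mean CPM ratios, a replicate block, and leaving out each mouse or vehicle replicates 6 and 8. Promoter sequences came from RefSeq, GRCm38.p6.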

Additional observations from a re-analysis of the deposited data

Results flagged for a closer look

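In 11 of 91 groups of values, 1 mouse stood far from the others of its group by Dixon's criterion. Its rate of about 1 in 20 groups by chance holds for normally distributed values, while 30.4% of the member values were at 0. Where only 1 mouse of a group was above the floor, the flag was given in any case. The count of flags is thus not read as an excess. High single values in the vehicle group were those of Lyz1 at 7.70 in replicate 8 (the next highest 2.69), Trem2 at 6.06 in replicate 2 (next 2.74), Adgre1 at 3.23 and Fcgr1 at 1.65 in replicate 3, and Xcr1 at 0.757 in replicate 1, where all other vehicle mice were at 0 for the last 3 genes. In the BDE-47 group Itgax stood at 5.25 in replicate 4 (next 1.33). Low single values were those of C1qc at 2.24 in vehicle replicate 7 (next 5.09), Cbr2 at 0 in vehicle replicate 6 (next 4.18), Laptm5 at 1.41 (next 4.50) and Cd14 at 0 (next 4.22) in BDE-47 replicate 6, and Mrc1 at 0 in BDE-47 replicate 5 (next 4.89). All are on the log2 scale. BDE-47 replicate 6 is the library with skeletal muscle genes and vehicle replicates 6 and 8 are those with B cell genes, and the part of these tissues in the values was not tested.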

How the results depend on the processing

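The count of 0 genes with an adjusted limma p under 0.05 was also 0 under each alternative tried and without any 1 mouse, except that it was 1 (Wfdc18, no member) without BDE-47 replicate 6 and vehicle replicates 6 and 8, an alternative chosen after seeing the data. The 3 members with an unadjusted limma p under 0.05 became 1 with log2(CPM + 0.1) and 1 with no filter, and 0 without vehicle replicates 6 and 8, with or without BDE-47 replicate 6. Leaving out 1 mouse gave 1 to 7 such members: 1 without vehicle replicate 6, vehicle replicate 8 or BDE-47 replicate 6, 5 without vehicle replicates 1 or 5 or BDE-47 replicates 1, 3 or 4, and 7 without vehicle replicate 7. The 13 members past 2-fold lower became 6 without vehicle replicates 6 and 8, with or without BDE-47 replicate 6, and 7 to 14 without 1 mouse (7 or 8 without vehicle replicate 6, vehicle replicate 8 or BDE-47 replicate 6). The 2 past 2-fold higher became 10 with log2(CPM + 0.1), 6 without vehicle replicates 6 and 8, 8 without BDE-47 replicate 6 as well, and 1 to 7 without 1 mouse (1 without BDE-47 replicate 3, 4 to 7 without vehicle replicates 1, 2, 3, 4 or 8 or BDE-47 replicates 1, 5 or 6). The median difference of the members tested, -0.26, moved by over 1.5 times without vehicle replicates 1, 4, 5 or 7 or BDE-47 replicates 3, 4 or 7 (-0.53 to -0.40) and without BDE-47 replicates 1 or 6 (-0.11 and -0.03). It was -0.54 with log2(CPM + 0.1). Without vehicle replicates 6 and 8 and BDE-47 replicate 6 it was -0.02, beside -0.02 over all genes tested.

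The labels tie no batch to the replicate numbers, and same-numbered mice did not deviate together (correlations of deviations from -0.0175 to 0.0534). A batch arranged in another way would not show in these correlations. With the replicate block over the 7 pairs, which leaves out vehicle replicate 8, 0 genes were called, 1 member had an unadjusted limma p under 0.05, and 8 members were past 2-fold lower and 4 higher. The same 7 pairs without the block, added after seeing the data, gave 1, 8 and 4. C1qb was at 0.0772 in both, a change of sign.

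Of 24 genes compared, 13 kept their sign under every alternative. Without vehicle replicates 6 and 8, and then without BDE-47 replicate 6 as well, the sign turned for Cd52 (0.1704, 0.6979), Lyz2 (0.06926, 0.1903), C1qb (0.241, 0.3653), C1qc (0.02297, 0.3742), Timd4 (0.4684, 0.5465) and Itgax (0.01461, 0.1893). Without all 3 mice it also turned for Tyrobp (0.2198), Retnla (-0.01073) and Clec10a (0.2026). The log2 ratio of mean CPM was -0.1223 for Cd163 and -0.1397 for Retnla, opposite to the mean of logs. Leaving out 1 mouse gave -0.4158 to 0.0772 for C1qb, -1.388 to 0.2039 for Mrc1 and -0.6048 to 0.0954 for Clec10a. Why these values moved was not tested beyond which mice were left out. The floor of 1 CPM and the many values at 0 limit the sparse members most, and a difference under 2-fold was within 1 standard error for a typical member.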
